A study of Mus musculus with 6 samples.

Results

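T cell and cytotoxic lymphocyte transcripts were examined in healing flexor tendons through 10 genes, *Cd3d*, *Cd3e*, *Cd3g*, *Cd4*, *Cd8a*, *Trbc2*, *Foxp3*, *Nkg7*, *Gzma* and *Gzmb*, chosen by symbol from the 53819 genes listed. All 10 had counts in every library and all 10 were among the 17496 genes that passed the filter on low counts. Poly(A)-selected RNA was sequenced from flexor digitorum longus (FDL) tendons of the mouse hind paw, 1 tendon per library, with 3 DTR and 3 WT tendons. DTR mice were Scx-Cre+; DTR F/+ and WT littermates were Scx-Cre-; DTR F/+, so both groups carried the floxed diphtheria toxin receptor allele, both underwent transection and repair of the tendon at 10 to 12 weeks of age, and both received 5 daily local injections of 100 ng diphtheria toxin (DT) from D14 to D18. Tendons were harvested at D28 post-surgery. The Cre driver is not inducible and acts wherever *Scx*, a transcription factor of tendon cells, has been expressed, so the toxin was aimed at *Scx*-lineage cells and not at lymphocytes. Male and female mice were used, and the labels give no sex or litter for a library.

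T cells recognise antigen with a receptor made of paired variable chains, usually alpha and beta, whose constant parts are encoded by *Trac*, *Trbc1* and *Trbc2*. The receptor chains cannot signal by themselves, and the CD3 chains encoded by *Cd3d*, *Cd3e* and *Cd3g* carry the signal into the cell, while the coreceptors CD4 and CD8 mark helper and cytotoxic T cells. *Foxp3* is the transcription factor of regulatory T cells, and *Nkg7*, *Gzma* and *Gzmb* encode granule proteins of cytotoxic T cells and natural killer (NK) cells. In injured tendon such cells are a small population beside macrophages and fibroblasts.

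The 3 CD3 genes lie next to each other on chromosome 9, and *Cd3g* and *Cd3d* are read in opposite directions from neighbouring starts. Their upstream sequences are shown because the CD3 transcripts followed a shared pattern across the libraries. Those of both granzyme genes are shown because the granzymes did not follow each other. Each is the stretch from 250 to 53 bases before the RefSeq transcript start (198 bases, build GRCm38.p6, 5′ to 3′ on the gene's strand), which holds no annotated GENCODE exon. Capitals mark any match, on either strand, to TGTGGT for RUNX factors, AGATAA for GATA factors, CAGGAA for ETS factors, TGANTCA for AP-1, TGACGTCA for the CRE or CAGCTG for the E-box.
Cd3d: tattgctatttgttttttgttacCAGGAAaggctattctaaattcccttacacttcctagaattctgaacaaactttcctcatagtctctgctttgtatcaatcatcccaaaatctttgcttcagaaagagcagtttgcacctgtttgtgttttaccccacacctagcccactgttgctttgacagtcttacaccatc (chr9:44981536-44981733, strand +)
Cd3e: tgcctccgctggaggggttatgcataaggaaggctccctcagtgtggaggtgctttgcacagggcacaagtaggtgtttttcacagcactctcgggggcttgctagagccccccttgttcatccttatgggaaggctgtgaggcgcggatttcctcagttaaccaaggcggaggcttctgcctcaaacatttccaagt (chr9:45009664-45009861, strand -)
Cd3g: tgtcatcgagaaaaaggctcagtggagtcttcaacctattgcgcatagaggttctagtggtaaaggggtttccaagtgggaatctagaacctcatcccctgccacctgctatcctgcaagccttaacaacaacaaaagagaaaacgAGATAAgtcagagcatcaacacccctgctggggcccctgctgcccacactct (chr9:44980484-44980681, strand -)
Gzma: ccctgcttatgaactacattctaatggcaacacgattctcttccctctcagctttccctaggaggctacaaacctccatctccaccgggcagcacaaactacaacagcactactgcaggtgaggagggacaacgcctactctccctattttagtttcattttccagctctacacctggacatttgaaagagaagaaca (chr13:113101034-113101231, strand -)
Gzmb: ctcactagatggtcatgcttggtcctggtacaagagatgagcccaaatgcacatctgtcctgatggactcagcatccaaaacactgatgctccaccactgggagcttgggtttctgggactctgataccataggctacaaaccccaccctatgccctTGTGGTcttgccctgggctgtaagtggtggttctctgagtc (chr14:56262387-56262584, strand -)
*Cd3e* and *Gzma* held none of these letters in the window, *Cd3d* held the ETS letters 227 bases before its start, *Cd3g* the GATA letters at 104 bases and *Gzmb* the RUNX letters at 93 bases. Among the same windows of 27025 genes, 20.5% held the ETS letters, 8.62% the GATA letters, 11.5% the RUNX letters, 9.98% the E-box letters, 5.67% the AP-1 letters and 0.836% the CRE letters. The CD3 windows thus shared no motif of this set, and their GC content was 38.9% for *Cd3d*, 55.1% for *Cd3e* and 50.0% for *Cd3g*. Such letter matches are a description of the sequence and not binding sites.

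The libraries held 42744138 to 48854310 counts. At this depth the 10 genes together had 13.8 to 32.5 CPM, and all 10 lay below the median level of the genes tested, 733 normalised counts (TMM-normalised counts at the mean library size, used throughout). Per kilobase of exon, the mean level over the 6 libraries was 146 ± 53.2 (SD, n = 6) for *Trbc2* and 145 ± 58.1 for *Cd4*, which did not differ beyond their spread. They were followed by *Cd3g* at 30.2 ± 12.6, *Nkg7* at 24.5 ± 7.54, *Cd3d* at 18.8 ± 9.07, *Gzmb* at 15.0 ± 9.98, *Cd3e* at 13.8 ± 6.23, *Gzma* at 12.3 ± 5.92, *Cd8a* at 9.18 ± 3.89 and *Foxp3* at 6.10 ± 4.15. In this order each gene after *Cd3g* lay within 1 SD of its neighbour, and the step below *Cd4* was the only one beyond the spread. *Ptprc*, the CD45 gene of all leukocytes, had 238 and the macrophage gene *Adgre1* 1474 on the same scale. Tissue identity was as labelled, with *Tnmd*, a tendon cell gene, at 50499 to 92191 normalised counts over the libraries. Over 7 tendon cell genes the median log2 fold change was 0.32, with 6 fitted higher and 1 lower in DTR tendons, and edgeR called 0. *Scx*, whose lineage the toxin was aimed at, had 2201, 2703 and 3063 normalised counts in WT and 3475, 3406 and 3531 in DTR replicates 1 to 3, each DTR library above each WT library, at 0.39 in log2 (0.27 to 0.50 with 1 library left out) with adjusted p-values of 0.371 by edgeR and 0.143 by DESeq2. DESeq2 called 1 gene of the list, *Thbs4*, an extracellular matrix protein of tendon, at 0.65 in log2 (adjusted p = 5.94e-05, edgeR adjusted p = 0.307).

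No T cell or cytotoxic gene of the 10 was called different between DTR and WT tendons. edgeR's quasi-likelihood test gave adjusted p-values between 0.539 (*Nkg7*) and 0.966 (*Gzma*) over all 17496 genes, and 0 of the 10 had an unadjusted p under 0.05, against 11.0% of all genes tested (5.52% higher and 5.45% lower in DTR). The same test called 0 genes in the whole table (0% of 17496, smallest adjusted p = 0.199). DESeq2's Wald test, which called 2.65% of 17564 genes (1.12% higher and 1.53% lower), also called 0 of the 10, with adjusted p-values between 0.714 and 0.988. Of the 10, 6 were fitted higher and 4 lower in DTR tendons, and 48.5% of all genes tested were fitted lower. The median log2 fold change of the 10 was 0.11 against 0.01 over all genes tested. It was 0.64 without WT replicate 1, -0.15 without WT replicate 2, and -0.14 without WT replicate 3 or DTR replicate 1. Log2 fold changes ran from -0.64 (*Foxp3*) to 0.78 (*Gzmb*), with standard errors of 0.37 to 0.71 where the median gene had 0.16. The 95% interval of the difference held 0 for all 10 and reached beyond a log2 fold change of 1 in 1 direction or the other for all 10. These intervals are wide, and for some genes they hold a log2 fold change of 1 in a single direction, as for *Cd3g* (-1.26 to 0.56). In a bulk sample, fewer cells of a type and less RNA per cell cannot be told apart.

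**Figure D1:**
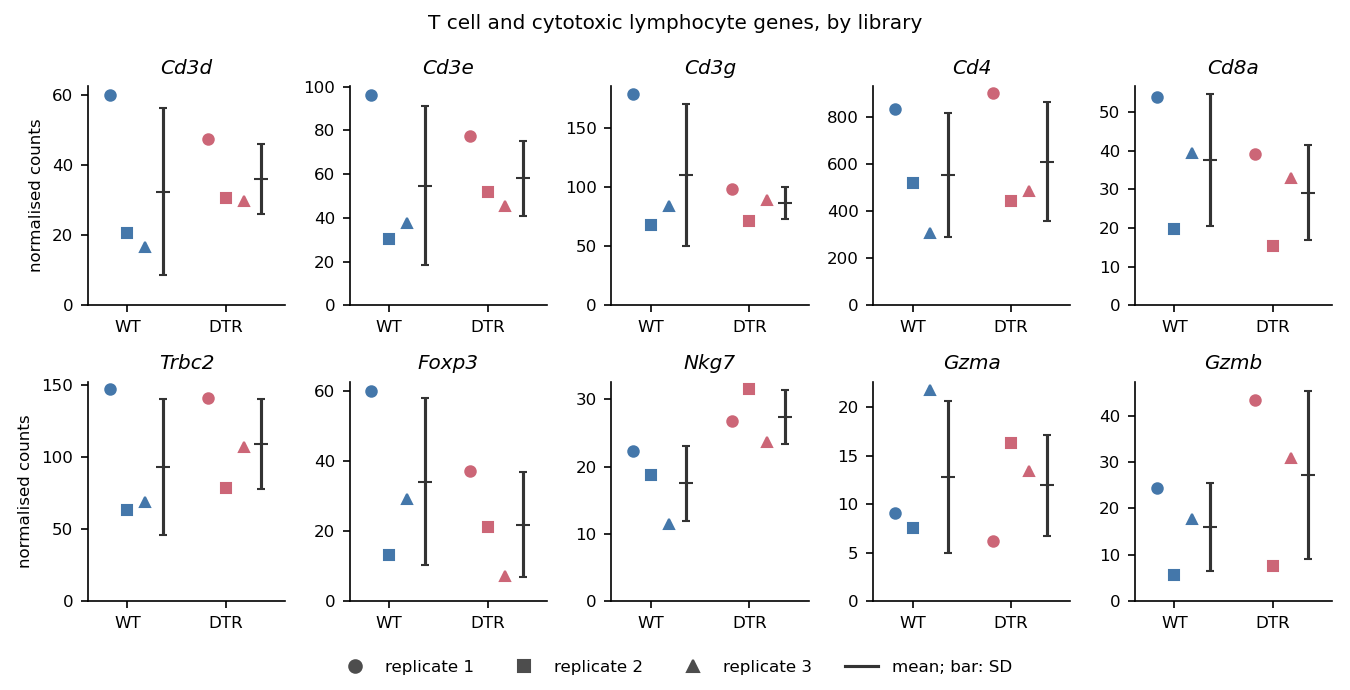
Normalised counts of the 10 genes in each WT and DTR library (linear axes from 0; circle, square and triangle: replicates 1, 2 and 3; bar: mean with SD, n = 3). *Nkg7* is the only gene of the 10 in which each DTR library lies above each WT library, and WT replicate 1 is the highest WT library in 9 of the 10.

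The CD3 chains varied more between animals of a group than between the groups. *Cd3e* had 96.4, 30.1 and 37.4 normalised counts in WT and 77.3, 51.6 and 45.2 in DTR replicates 1 to 3. WT replicate 1 and DTR replicate 1 were the highest libraries, and the WT values spanned those of the DTR group. *Cd3e* thus averaged 54.6 ± 36.3 in WT and 58.0 ± 17.0 in DTR tendons (SD, n = 3 each), with a log2 fold change (DTR over WT) of 0.09 (standard error, SE, 0.48, 95% interval -1.03 to 1.21). *Cd3d* had 59.9, 20.7 and 16.6 in WT and 47.4, 30.6 and 29.8 in DTR replicates 1 to 3, again with replicate 1 of each group highest (log2 fold change 0.15, SE 0.53, interval -1.08 to 1.37). *Cd3g* had 179.6, 67.8 and 84.2 in WT and 98.9, 71.7 and 89.4 in DTR replicates 1 to 3. Here WT replicate 1 stood apart from 5 libraries of similar level, and the log2 fold change was -0.35 (SE 0.39, interval -1.26 to 0.56).

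The direction of these differences depended on single libraries. Without WT replicate 1 the log2 fold changes were 0.94 for *Cd3d*, 0.78 for *Cd3e* and 0.19 for *Cd3g*, and the smallest edgeR adjusted p with any 1 library left out was 0.691 for *Cd3d* and 0.701 for *Cd3e*. *Cd3g* turned its sign in that fit only. *Cd3d* was at -0.09, -0.16 and -0.10 without WT replicate 2, WT replicate 3 or DTR replicate 1, and *Cd3e* at -0.20, -0.12 and -0.18 without the same libraries. Summed over the 3 genes, the CD3 transcripts had 336, 119 and 138 normalised counts in WT and 224, 154 and 164 in DTR replicates 1 to 3. Exons of *Cd3e* share bases with those of 1 gene on the opposite strand, so its level is uncertain. The spread of the sum in SD was 120.2 among the WT and 37.5 among the DTR tendons (n = 3 each).

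The receptor chain gene *Trbc2* followed the CD3 genes, with 147, 63.1 and 68.6 normalised counts in WT and 141, 78.4 and 107 in DTR replicates 1 to 3. Replicate 1 was highest in WT and in DTR, with overlap between them (log2 fold change 0.23, SE 0.40, interval -0.69 to 1.15). Without WT replicate 1 the difference was 0.72 and without DTR replicate 1 it was -0.01. *Trbc1* and *Trbc2* are near-identical in sequence, so the counting could have split or dropped reads between them. *Trac*, the alpha chain partner outside the 10 genes, had 145, 61.2 and 69.6 in WT and 118, 70.8 and 79.1 in DTR replicates 1 to 3, the same order with a log2 fold change of -0.04 (SE 0.39).

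Among the coreceptors, *Cd4* was the most abundant of the 10 genes by counts, with 836, 521 and 308 normalised counts in WT and 903, 445 and 488 in DTR replicates 1 to 3. It averaged 555 ± 266 in WT and 612 ± 253 in DTR tendons (SD, n = 3 each), with overlap, and a log2 fold change of 0.14 (SE 0.45, interval -0.98 to 1.26). The difference was 0.56 without WT replicate 1 and -0.25 without DTR replicate 1. CD4 is also carried by some dendritic cells and macrophages in the mouse, so that its transcript is not a count of helper T cells. *Cd8a* had 53.8, 19.8 and 39.5 in WT and 39.1, 15.3 and 32.9 in DTR replicates 1 to 3. Replicate 2 was lowest in both groups, the groups overlapped, and the difference in log2 was -0.37 (SE 0.49, interval -1.51 to 0.77), between -0.68 and -0.02 with 1 library left out. *Cd8a* is also expressed by a class of dendritic cells. The beta chain of the same coreceptor, *Cd8b1*, which was outside the 10 genes, had 39.6, 15.1 and 27.0 in WT and 39.1, 20.1 and 37.0 in DTR replicates 1 to 3, with a log2 fold change of 0.24 (SE 0.45).

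*Foxp3* had the widest range of the 10 genes, 8.33-fold between the highest and the lowest library. It had 59.9, 13.2 and 29.1 normalised counts in WT and 37.1, 21.0 and 7.19 in DTR replicates 1 to 3, so the groups overlapped at these low levels. The lowest value rests on 7 counts, for which an exact 95% Poisson interval is 2.81 to 14.4 counts, and the highest on 59 counts (44.9 to 76.1), so these 2 libraries differed beyond counting error. Such intervals cover counting error only. The log2 fold change was -0.64 (SE 0.71, interval -2.30 to 1.02), and it was -1.26 without DTR replicate 1 and 0.05 without WT replicate 1. Exons of *Foxp3* share bases with those of 4 annotated genes, 3 of them on the opposite strand, and since the strand setting of the counting is not given in the sources used here the value is uncertain.

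*Nkg7*, which encodes a membrane protein of cytotoxic granules, was the one gene of the 10 without overlap between the groups. It had 22.3, 18.8 and 11.4 normalised counts in WT and 26.8, 31.6 and 23.6 in DTR replicates 1 to 3, so that each DTR library was above each WT library. Among all genes tested, 8.96% lay with every DTR library above every WT library and 16.8% were without overlap in either direction, so 1 gene of 10 is near the background. The means were 17.5 ± 5.56 (SD, n = 3) and 27.3 ± 3.99 (SD, n = 3), with a log2 fold change of 0.64 (SE 0.37, interval -0.23 to 1.50, edgeR adjusted p = 0.539). With 1 library left out the difference lay between 0.41 and 0.85. The gap between the groups was small beside counting error, as WT replicate 1 had 22 counts (exact Poisson interval 13.8 to 33.3) and DTR replicate 3 had 23 (14.6 to 34.5). The variance within groups was 1.05 times that of Poisson counting for *Nkg7*, against 115 times for *Cd4*.

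The granzymes, proteases that enter target cells from cytotoxic granules, did not follow each other. *Gzmb* had 24.4, 5.65 and 17.7 normalised counts in WT and 43.3, 7.65 and 30.8 in DTR replicates 1 to 3. Replicate 2 was lowest in both groups, at 6 and 8 counts, and DTR replicates 1 and 3 were above all WT libraries. *Gzmb* had the largest fitted difference of the 10 genes, at 0.78 in log2 (SE 0.71, interval -0.90 to 2.45, edgeR adjusted p = 0.701), and it was 1.22 without WT replicate 1 and 0.27 without DTR replicate 1. *Gzma* had 9.13, 7.53 and 21.8 in WT and 6.18, 16.3 and 13.4 in DTR replicates 1 to 3. Its highest library was WT replicate 3 and its lowest DTR replicate 1, where *Gzmb* was highest (log2 fold change -0.09, SE 0.58, interval -1.44 to 1.25). Without WT replicate 3, *Gzma* was at 0.52. *Gzmb* belongs to a cluster of similar granzyme genes between which reads could have been split.

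**Figure D2:**
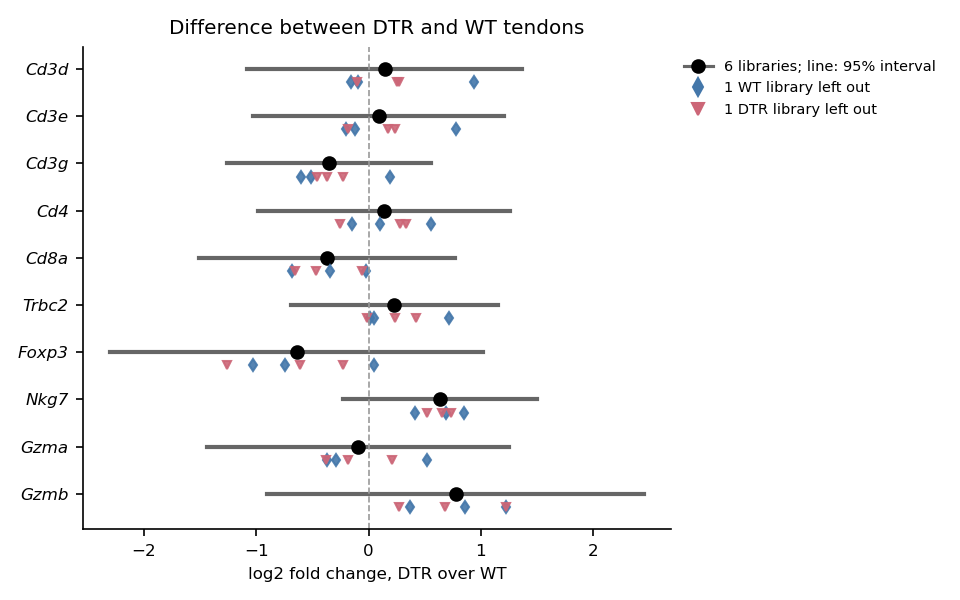
Log2 fold change of DTR over WT for each gene from edgeR's fit (black point) with its 95% interval (grey line), and below it the values with 1 WT library (blue diamonds) or 1 DTR library (red triangles) left out. All 10 intervals hold 0, and for *Cd3d*, *Cd3e*, *Cd3g*, *Cd4*, *Trbc2*, *Foxp3* and *Gzma* leaving out 1 library moves the value across 0.

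The pattern across libraries was shared by most of the genes and was not that of the genotypes. WT replicate 1 was the highest WT library for 9 of the 10 genes (34.8% of all genes tested) and DTR replicate 1 the highest DTR library for 8. For 6 genes, *Cd3d*, *Cd3e*, *Cd3g*, *Cd4*, *Trbc2* and *Foxp3*, these libraries were the 2 highest of all 6, as they were for 7.94% of all genes tested. The 10 genes mark overlapping cells and are not independent, so these shares are a description. Over the 6 libraries, Pearson's r with the mean of the standardised CD3 genes was 0.93 for *Trbc2*, 0.81 for *Cd4*, 0.69 for *Foxp3*, 0.65 for *Cd8a* and 0.61 for *Gzmb*, but 0.41 for *Nkg7* and -0.42 for *Gzma*. Libraries enter each gene with the same depth and composition, and at n = 6 with sparse counts the lower of these values are no finding.

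**Figure D3:**
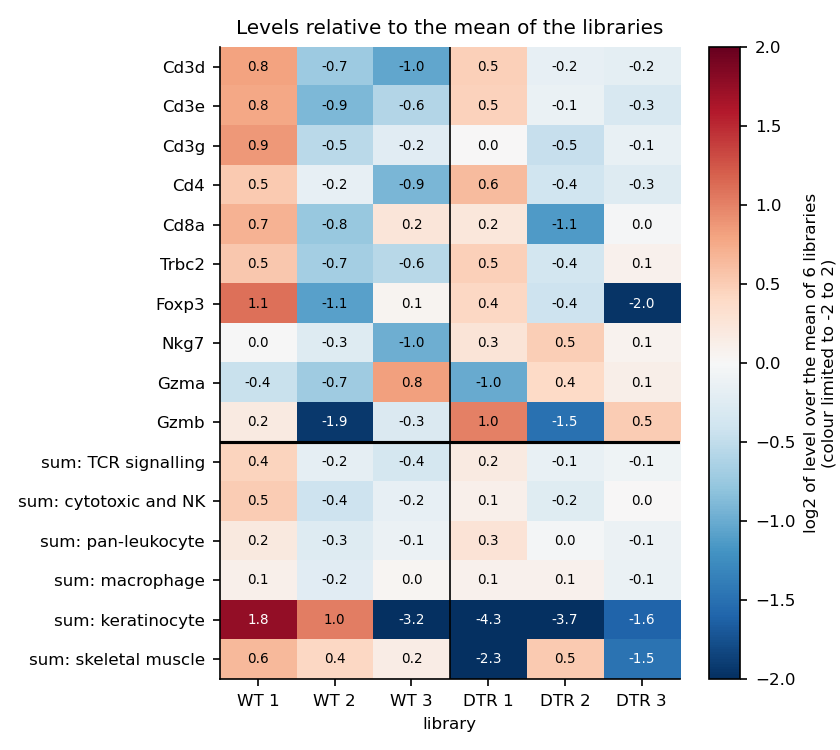
Log2 of each level over the mean of the 6 libraries for the 10 genes (upper block) and for the summed levels of 6 gene lists (lower block), with WT left and DTR right of the line. WT replicate 1 and DTR replicate 1 are at or above the mean for the CD3 genes, *Cd4*, *Trbc2* and *Foxp3* and for the pan-leukocyte sum, while the keratinocyte and muscle sums are high in WT replicate 1 and low in DTR replicate 1.

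Among the 16032 tested genes with a mean of at least 20 normalised counts, the 10 most like the CD3 genes in pattern were *Btla* (r = 0.999), *Gm36445* (0.994), *Ifi207* (0.993), *Zup1* (0.990), *Irf7* (0.988), *Ikzf1* (0.981), *Cyth4* (0.980), *Trac* (0.980), *Plac8* (0.979) and *Tbc1d10c* (0.978), over 6 libraries. *Btla* encodes an inhibitory receptor of lymphocytes, *Ikzf1* is a transcription factor gene of the pan-leukocyte list, and *Irf7* and *Ifi207* are interferon-inducible. *Irf7* had 2883, 884 and 992 normalised counts in WT and 2009, 1059 and 1287 in DTR replicates 1 to 3, and *Plac8* had 671, 194 and 199.5 in WT and 421, 321 and 336 in DTR replicates 1 to 3. These genes were chosen for their likeness, so the values are a description. Pearson's r takes no account of the size of a change. *Btla* ran only from 457 to 560.1 normalised counts over the libraries, above the summed CD3 level in each. The median r with the CD3 genes was 0.83 over 10 pan-leukocyte genes, 0.49 over 12 macrophage genes, 0.20 over 10 keratinocyte genes and -0.15 over 12 skeletal muscle genes, and 0.00 over all ranked genes.

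Tissues around the tendon also differed between the libraries. The summed level of 10 keratinocyte genes was 145841, 87396 and 4826 normalised counts in WT and 2155, 3242 and 14197 in DTR replicates 1 to 3, and that of 12 skeletal muscle genes 968658, 823094 and 688527 in WT and 127389, 889108 and 221752 in DTR replicates 1 to 3. All 10 keratinocyte and all 12 muscle genes were fitted lower in DTR tendons, with medians of -2.89 and -1.01 in log2, and edgeR called 0 of either while DESeq2 called 1 keratinocyte gene, *Sbsn*. With 1 library left out, the keratinocyte median ran from -6.44 (without DTR replicate 3) to -1.88 (without WT replicate 1) and the muscle median from -2.37 (without DTR replicate 2) to -0.58 (without DTR replicate 1). *Krt5* was at 0 in DTR replicates 1 and 2. WT replicate 1, highest for most T cell genes, was thus also highest for both of these lists, but DTR replicate 1, the next highest for the CD3 genes, was lowest for both. The 10 pan-leukocyte genes summed to 40909, 29990.2 and 32801 in WT and 42959.7, 34788 and 32858 in DTR replicates 1 to 3, highest in replicate 1 of each group, with a median log2 fold change of -0.01. The part of these tissues in the T cell levels was not tested.

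Ratios within a library described the make-up of the lymphocyte transcripts apart from their amount. The CD3 sum over *Ptprc* was 0.0695, 0.0333 and 0.0366 in WT and 0.0406, 0.0338 and 0.0421 in DTR replicates 1 to 3. WT replicate 1 stood above the other 5 libraries, which lay close together, while DTR replicate 1 was no longer set apart. *Cd8a* over *Cd4* was 0.0643, 0.0380 and 0.128 in WT and 0.0434, 0.0344 and 0.0674 in DTR replicates 1 to 3. The *Foxp3* level over the CD3 sum was 0.178, 0.111 and 0.211 in WT and 0.166, 0.137 and 0.0437 in DTR replicates 1 to 3, with DTR replicate 3 apart from the rest. *Gzma* and *Gzmb* together over the CD3 sum were 0.0997, 0.111 and 0.286 in WT and 0.221, 0.155 and 0.269 in DTR replicates 1 to 3. All of these ratios overlapped between the groups, and they are given with no test.

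**Figure D4:**
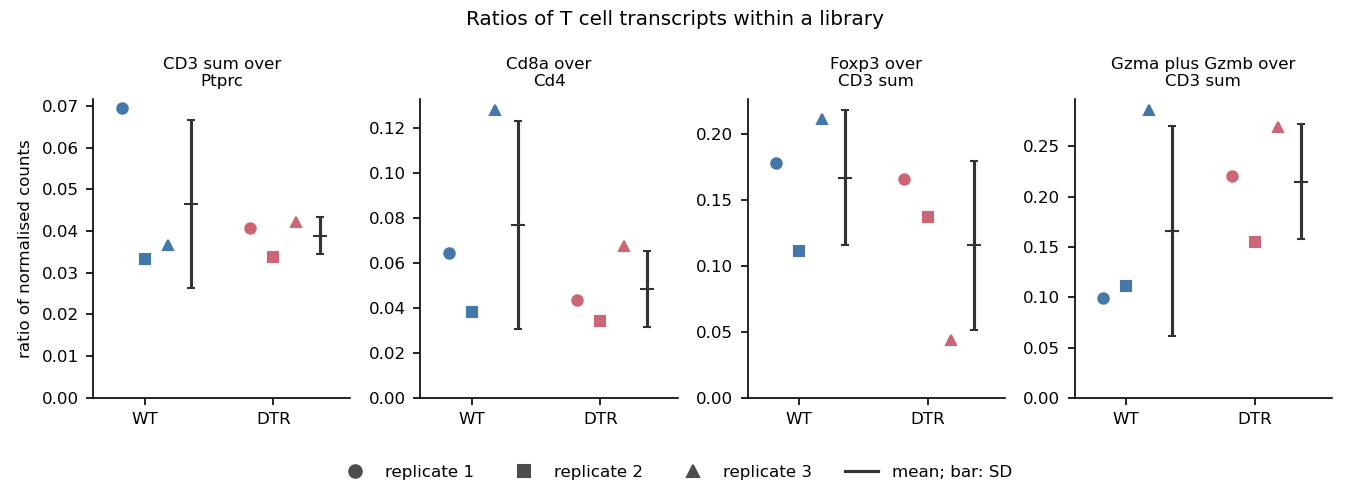
Ratios of normalised counts within each library for the CD3 sum over *Ptprc*, *Cd8a* over *Cd4*, *Foxp3* over the CD3 sum and the summed granzymes over the CD3 sum (linear axes from 0; symbols: replicates; bar: mean with SD, n = 3). WT and DTR libraries overlap in all 4 panels, with *Foxp3* over the CD3 sum lowest in DTR replicate 3 at 0.0437.

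The wider T cell receptor apparatus gave the same picture. Of 20 further genes of the receptor complex, its kinases and adaptors and costimulation, 19 were tested, with 7 fitted higher and 12 lower. Their median log2 fold change was -0.06 against 0.01 over all genes. It was 0.28 without WT replicate 1 and -0.34 without DTR replicate 1. Of the 19 genes, edgeR called 0 and 1 had an unadjusted p under 0.05. *Cd247*, the zeta chain of the receptor, had a log2 fold change of -0.25 (SE 0.24), and *Trbc1* one of 0.00 (SE 0.40). The 1 gene was *Bcl11b*, a transcription factor of T cell commitment, with 302, 136 and 70.7 normalised counts in WT and 76.2, 33.5 and 52.4 in DTR replicates 1 to 3. DTR replicate 1 was within the WT range. *Bcl11b* had a log2 fold change of -1.65 (SE 0.57, edgeR adjusted p = 0.414), was called lower by DESeq2 (adjusted p = 0.0403), and was at -0.93 without WT replicate 1. It is also expressed in skin keratinocytes, whose summed level was highest in WT replicates 1 and 2 as well. That part was not tested.

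Regulatory and helper T cell genes were sparse. Of 11 regulatory T cell genes 9 were tested, with 1 fitted higher and 8 lower, a median log2 fold change of -0.43 and 0 with an unadjusted p under 0.05. *Il2ra*, the high-affinity interleukin 2 receptor chain, had a log2 fold change of -0.43 (SE 0.34) and *Ikzf2* one of -0.08 (SE 0.30). *Ctla4*, an inhibitory receptor, had 338, 81.9 and 98.7 normalised counts in WT and 69.0, 102 and 142 in DTR replicates 1 to 3, so that WT replicate 1 set the difference of -0.73 (SE 0.60), which was 0.21 without it. The median of the regulatory list was -0.08 without WT replicate 1 and -0.51 without WT replicate 2. Of 13 helper T cell regulators and cytokines 6 were tested, of which 1 was fitted higher and 5 lower, with a median of -0.51. The T helper factor *Tbx21* had 27.4, 18.8 and 13.5 in WT and 12.4, 12.4 and 13.4 in DTR replicates 1 to 3 (log2 fold change -0.64, SE 0.40), which left each DTR library below each WT library by a small margin, as in 7.85% of all genes tested. *Il17a* was at 0 counts in all 6 libraries, which allows up to 3 counts in each.

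The T helper factor *Gata3*, which is also expressed in skin, had 187, 143 and 9.35 in WT and 14.4, 17.2 and 62.7 in DTR replicates 1 to 3, an order that the keratinocyte sum shared for the 3 highest libraries, WT replicates 1 and 2 and DTR replicate 3. The part of keratinocytes in it was not tested.

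Of 20 further cytotoxic and NK cell genes, 14 were tested, 7 fitted higher and 7 lower, with a median log2 fold change of 0.01. edgeR called 0, and 1 had an unadjusted p under 0.05. This was *Gzmc*, a neighbour of *Gzmb* with a similar sequence, with 12.2, 4.71 and 5.20 normalised counts in WT and 15.5, 13.4 and 27.7 in DTR replicates 1 to 3 (log2 fold change 1.34, SE 0.54, edgeR adjusted p = 0.447). Each DTR library was above each WT library, at 5 to 27 counts. *Gzmm* had 64.9, 42.4 and 41.6 in WT and 14.4, 60.2 and 21.6 in DTR replicates 1 to 3 (log2 fold change -0.62, SE 0.54). The summed level of the list was 2701, 1423 and 1692 in WT and 2022, 1609 and 1912 in DTR replicates 1 to 3, and its median was 0.45 without WT replicate 1. *Prf1*, the pore-forming protein of the granules, was under the filter with 2 to 17 counts. It was named after its values were seen.

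The gamma delta receptor gene *Trdc* had 713, 607 and 578 normalised counts in WT and 924, 379 and 599.9 in DTR replicates 1 to 3, with overlap and a log2 fold change of 0.00 (SE 0.31). Per kilobase of exon its mean was 164 ± 46.4 (SD, n = 6), beside 97.0 ± 35.7 for *Trac*, 52.2 ± 16.2 for *Trbc1* and 146 ± 53.2 for *Trbc2*. Within 1 SD of the means, *Trdc* overlapped with *Trac* and *Trbc2* but lay above *Trbc1*. Exons of *Trdc* share bases with those of 2 genes on the opposite strand, so the level is uncertain. *Trgc1* and *Trgc2*, constant parts of the gamma chain, differed by -0.56 (SE 0.35) and -0.18 (SE 0.37) in log2. Of 13 gamma delta symbols 8 were listed and tested, with 2 fitted higher and 6 lower. Their median was -0.20 (0.03 without WT replicate 1 and -0.41 without WT replicate 2). Of these 8 genes, 1 had an unadjusted p under 0.05. That gene, *Sox13*, which was named after its values were seen, had 944, 913 and 976 in WT and 686, 755 and 779 in DTR replicates 1 to 3, with each DTR library below each WT library (log2 fold change -0.35, SE 0.09, edgeR adjusted p = 0.340). Its protein is a transcription factor of gamma delta T cells that is also made in other tissues.

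**Figure D5:**
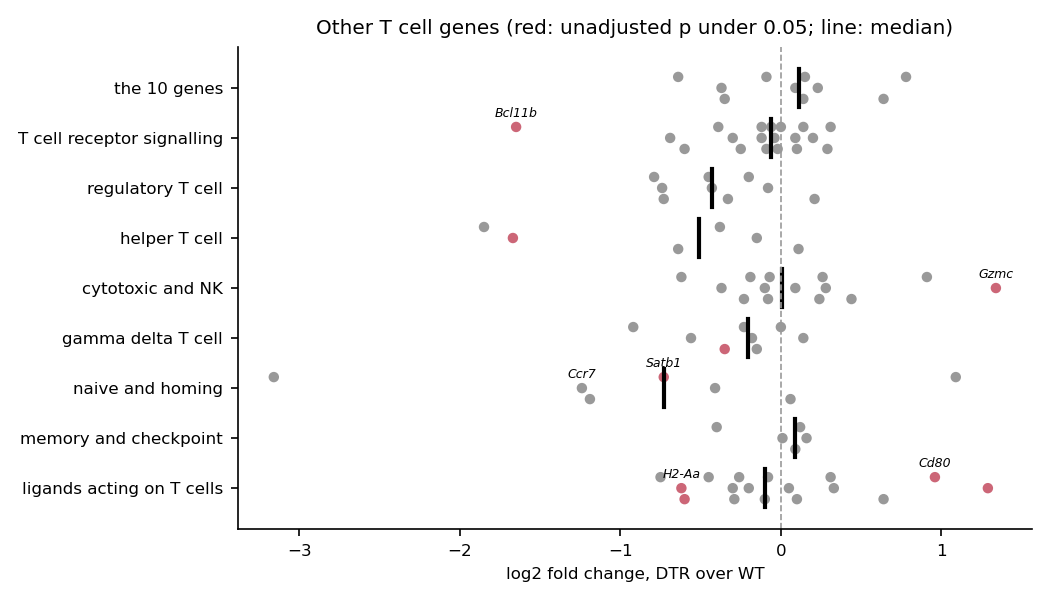
Log2 fold change of DTR over WT for each tested gene of the 10 and of 8 further lists of T cell genes (red: unadjusted p under 0.05, grey: the rest, black line: median of the list). The medians lie between -0.73 for the naive and homing list and 0.11 for the 10 genes. Red points are 0 of 10 for the 10 genes, 1 of 19 for receptor signalling, 0 of 9 for regulatory and 1 of 6 for helper genes. They are 1 of 14 for cytotoxic, 1 of 8 for gamma delta, 1 of 7 for naive and 0 of 5 for memory genes. Of the 17 ligand genes, 2 higher and 2 lower are red, and 11.0% of all genes tested had such a p.

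Naive and lymph node homing genes had the lowest median of the T cell lists, -0.73 over 7 genes, with 2 fitted higher and 5 lower. *Satb1*, a chromatin organiser of thymocytes, had 1043, 1155 and 828 normalised counts in WT and 532, 783 and 508 in DTR replicates 1 to 3, each DTR library below each WT library. These levels were above those of each CD3 gene in every library, with WT replicate 2 highest. The part of T cells in them was not tested. *Satb1* had a log2 fold change of -0.73 (SE 0.20), with an adjusted p of 0.346 from edgeR's test and 0.0293 from DESeq2's, and it lay between -0.95 and -0.62 with 1 library left out. *Ccr7*, the receptor that guides T cells and dendritic cells to lymph nodes, had 456, 93.2 and 159 in WT and 129, 66.9 and 104 in DTR replicates 1 to 3, and its difference of -1.24 (SE 0.61) was -0.34 without WT replicate 1. *Dapl1*, named after its values were seen, had 877, 473 and 2.08 in WT and 0, 0 and 151 in DTR replicates 1 to 3, high in the same 3 libraries as the keratinocyte genes. The list median was -0.34 without WT replicate 1 and -0.86 without WT replicate 3. The part of keratinocytes in it was not tested. Over 5 tested genes of tissue memory and inhibitory receptors the median was 0.09, with *Lag3* at -0.40 (SE 0.21), *Havcr2* at 0.16 (SE 0.09) and *Tox* at 0.12 (SE 0.40).

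Ligands that act on T cells held genes that DESeq2 called in both directions, 1 higher and 2 lower. Of 18 genes 17 were tested, 7 fitted higher and 10 lower, with a median log2 fold change of -0.10, and edgeR called 0 while 4 had an unadjusted p under 0.05 (11.0% of all genes tested). DESeq2 called 1.12% of all its genes higher and 1.53% lower. *Cd80*, a costimulatory ligand of CD28 and CTLA-4 on antigen-presenting cells, had 494, 382 and 526 normalised counts in WT and 1174, 856 and 706 in DTR replicates 1 to 3, each DTR library above each WT library. *Cd80* had a log2 fold change of 0.96 (SE 0.21), with an adjusted p of 0.274 from edgeR's test and 0.00184 from DESeq2's, and lay between 0.74 and 1.12 with 1 library left out. The MHC class II genes *H2-Aa* and *H2-Ab1*, whose products present antigen to CD4 T cells, were on the other side. *H2-Aa* had 23953, 15824 and 15594 in WT and 13346, 11397 and 11293 in DTR replicates 1 to 3 (log2 fold change -0.62, SE 0.18, DESeq2 adjusted p = 0.0348, edgeR adjusted p = 0.354). *H2-Ab1* had 13209, 9939 and 8983 in WT and 8084, 6235 and 6839 in DTR replicates 1 to 3 (log2 fold change -0.60, SE 0.17, DESeq2 adjusted p = 0.0284, edgeR adjusted p = 0.346). Without WT replicate 1, *H2-Aa* was at -0.39. The interferon-inducible chemokines that attract activated T cells overlapped between the groups. *Cxcl9* had 352, 83.8 and 125 in WT and 381, 118 and 377 in DTR replicates 1 to 3, and *Cxcl10* had 770.2, 107 and 201 in WT and 469.8, 344 and 519 in DTR replicates 1 to 3. Their differences in log2 were 0.64 (SE 0.70) and 0.31 (SE 0.77). Without WT replicate 1 they were 1.49 for *Cxcl9* and 1.53 for *Cxcl10*, and without WT replicate 2 they were 0.29 and -0.13. In WT replicate 1 both were high, as were the CD3 genes.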

How the data were processed

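RNA-seq libraries of 3 DTR and 3 WT FDL tendons were analysed. The authors used FastP for read cleaning and featureCounts for counting, and deposited raw counts. A deposited signal table holds those values scaled by 1 DESeq2 size factor for each library (0.973 to 1.06, checked against the counts; DESeq2 1.22.1 per the labels). The aligner, genome build, annotation and strand setting are not given in the sources used here, and the labels name 2 library kits. Here, 17496 genes passed edgeR's filterByExpr, and TMM factors and a robust quasi-likelihood fit (edgeR 4.0.16, R 4.3.3) with genotype as the single term were used, with Benjamini-Hochberg adjustment over all genes tested and a threshold of 0.05. Standard errors were taken as |log2 fold change| over √F, and intervals are 95%. DESeq2 1.42.0 and limma 3.58.1 were alternatives. Exon lengths came from GENCODE vM21 (97.8% of tested genes matched by symbol) and upstream sequences from RefSeq (8 of the 10 genes matched).

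Libraries held 42744138 to 48854310 counts. Replicate libraries of a group differed by a chi-square of 41 to 212 per degree of freedom, so none was a duplicate. The scripts were tested on simulated data. There edgeR recovered 48 of 96 tested genes changed by 1 in log2 and 79 of 95 changed by 2, with 16 false calls. DESeq2 recovered 59 of 100 and 84 of 100 such genes, with 66 false calls. Genes called by DESeq2 alone are therefore less certain, and edgeR can miss changes of 1 in log2. The 10 genes and 18 further lists were chosen with earlier results of these data known. The text names all 10 genes, of each further list used here the first 3 genes tested and any called by edgeR or DESeq2, and the 10 genes most like the CD3 genes. Some genes that this rule names are not reported here. Groups came from the sample titles, and the titles count the 28 days from depletion, where the methods count from surgery. Alternatives were DESeq2, limma-voom, RLE factors, library size only, no filter, a minimum of 10 counts in each of the libraries, a replicate block, leaving out 1 library at a time, and log2(deposited value + 1) in limma.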

Additional observations from a re-analysis of the deposited data

How the results depend on the processing

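Over 14 alternatives, 0 of the 10 genes was called and 0 had an unadjusted p under 0.05 in any fit. The number of genes called in the whole table, 0 in edgeR's fit, was 466 with DESeq2's Wald test, 83 without a filter on low counts, 1 with the replicate block, and between 0 and 544 with 1 library left out (544 without DTR replicate 2). The cause was not tested. Of 137 fits of the 10 genes under an alternative, 124 kept the sign and 13 turned it, all 13 with a library left out. The ranges with 1 library left out were -0.16 to 0.94 for *Cd3d*, -0.20 to 0.78 for *Cd3e*, -0.60 to 0.19 for *Cd3g*, -0.25 to 0.56 for *Cd4*, -0.01 to 0.72 for *Trbc2*, -1.26 to 0.05 for *Foxp3* and -0.38 to 0.52 for *Gzma*. *Cd8a*, *Nkg7* and *Gzmb* kept their sign in these fits. Of 266 list medians, 252 moved by less than 1 SD between replicates.

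The replicate numbers are shared by the groups, but same-numbered libraries did not deviate together (r = -0.188, -0.149 and -0.684 over genes). Deviations from a mean of 3 libraries constrain each other, so these values cannot show whether same-numbered tendons shared more than a number. With the replicate block the log2 fold change was 0.33 for *Cd3d* and 0.71 for *Gzmb*, and the block changed no call among the 10 genes. With 6 to 59 counts a library for *Foxp3*, *Nkg7*, *Gzma* and *Gzmb*, and 3 tendons a group, both counting and the number of animals limit what these data can show.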

Other observations

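Other leukocytes gave further values. Of 9 tested B cell and plasma cell genes, 2 were fitted higher and 7 lower in DTR tendons, with a median log2 fold change of -0.35 (-0.79 without DTR replicate 1 and -0.03 without DTR replicate 3); edgeR and DESeq2 called 0, and 1 had an unadjusted edgeR p under 0.05. *Ms4a1*, the CD20 gene of B cells, which was named after its values were seen, had 18.3, 19.8 and 18.7 normalised counts in WT and 7.21, 5.74 and 9.25 in DTR replicates 1 to 3, and its log2 fold change was -1.34 (SE 0.39). *Cd79a* and *Cd79b*, which encode the signalling chains of the B cell receptor, differed by -1.05 (SE 0.55) and 0.10 (SE 0.24) in log2. Over 8 dendritic cell genes the median was -0.33 (-0.01 without WT replicate 1 and -0.60 without WT replicate 2), with 1 fitted higher and 7 lower. Of the 8, 0 were called by edgeR or DESeq2 and 3 had an unadjusted edgeR p under 0.05, against 11.0% of all genes tested. These 3, named after their values were seen, were *Cd209a* at -0.70 (SE 0.28), *Batf3* at -0.68 (SE 0.25) and *Siglech* at -1.05 (SE 0.31). The first 3 genes of the list, *Itgax*, *Xcr1* and *Clec9a*, lay at -0.11, -0.08 and -0.23. All 7 mast cell genes were fitted lower in DTR tendons, with a median of -1.06 (-1.96 without DTR replicate 2 and -0.69 without DTR replicate 1). Of the 7, edgeR called 0, and 3 had an unadjusted edgeR p under 0.05. DESeq2 called 2 of the 7 lower, *Kit* (adjusted p = 0.0472) and *Ms4a2* (adjusted p = 0.00587), against 1.53% of all its genes. *Ms4a2*, a chain of the IgE receptor, had 90.3, 156 and 135 in WT and 30.9, 62.2 and 42.1 in DTR replicates 1 to 3. Over 12 macrophage genes the median was 0.04, with 6 fitted higher and 6 lower.

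Blood and lymph node transcripts were also measured. The 5 tested red blood cell genes were all fitted lower in DTR tendons, with a median log2 fold change of -1.11 (-0.68 without WT replicate 3). All 5 had an unadjusted edgeR p under 0.05, against 11.0% of all genes tested, and edgeR called 0 after adjustment. DESeq2 called 4 of the 5 lower, against 1.53% of all its genes. The summed level of the red blood cell list was 4415, 5613 and 9955 normalised counts in WT and 2661, 4161 and 2476 in DTR replicates 1 to 3. WT replicate 3, which was not high in the CD3 genes, was the highest library. Of 7 lymph node stroma genes 4 were tested, with a median of -0.23, and *Ccl21a* had 599, 1842 and 1577 in WT and 1642, 1285 and 695 in DTR replicates 1 to 3. The part of blood or lymph node in the T cell levels was not tested.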
